A study of Rattus norvegicus with 6 samples.

Results

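Lipid droplets are the cell's store of triglyceride and cholesteryl ester, and lipolysis is the stepwise release of fatty acids from that store. The genes described here are 10 that make, coat or break down the droplet, chosen by symbol: the lipases Pnpla2, Lipe and Mgll, the lipase co-activator Abhd5, the lipase inhibitors G0s2 and Hilpda, the coat proteins Plin2 and Plin3, and the enzymes of triglyceride synthesis Dgat1 and Dgat2. All 10 were among the 37183 symbols of the table, and each had a value in every library. The study asked how insulin exposure bears on lipid metabolism in brain cells. RNA was taken from primary cultures of rat hippocampal astrocytes and hippocampal neurons and sequenced as stranded total RNA from which ribosomal RNA had been removed.

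Each of the 6 groups is a single library, so no group had a replicate. The astrocyte groups were a control, 6 h of 200 nM insulin and 12 h of 200 nM insulin, and the neuron groups were the same. The control is labelled saline in the titles and untreated at 0 min in the characteristics. The sources used here do not give the strain, age and sex of the rats or the number of animals or wells pooled. Medium was changed 4 h before treatment in all groups, for the astrocytes to DMEM/F12 with 2% FBS and 5 mM glucose, and for the neurons to serum-free Neurobasal with 1% insulin-free B27. The control therefore lay 4 h, and the insulin cultures 10 and 16 h, after the medium change, and insulin and time in the changed medium cannot be told apart. The cultures also differed in serum, so cell type and medium cannot be told apart either.

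Pnpla2 (adipose triglyceride lipase) takes the first fatty acid from triglyceride, Lipe (hormone-sensitive lipase) acts mainly on the diglyceride that results, and Mgll (monoglyceride lipase) on the monoglyceride. In the brain Mgll is also known for breaking down the endocannabinoid 2-arachidonoylglycerol. Abhd5, also known as CGI-58, activates Pnpla2, while G0s2 and Hilpda bind Pnpla2 and inhibit it. In fat cells insulin is known to restrain lipolysis, in part by lowering cAMP, and in the brain droplets are found mainly in glia.

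Levels are in FPKM, fragments counted per kilobase of a transcript and relative to the size of the library. Being per length, they allow genes to be compared with each other. The deposited values were also quantile-normalised across the 6 libraries, which keeps the order of genes in a library but can alter their ratios and sums. Differences are log2 FPKM of one library minus another, on the deposited scale. A gene was compared where it had a value in both libraries and reached 1 FPKM in either, and "rose" and "fell" are used only where the difference then reached 1 on the log2 scale, a 2-fold change. With 1 library a group there is no spread within a group, and no test, error or p-value is given.

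The labels were checked against marker genes. The neuron-labelled control held neuronal transcripts, with 12 neuron markers summing to 80.2 FPKM against 1.77 FPKM in the astrocyte-labelled control. It also held more astrocyte marker RNA, 369 FPKM over 10 markers against 33.2 FPKM, and more RNA of 8 oligodendrocyte lineage markers, 117 FPKM against 3.95 FPKM. Both of these sums exceed that of the neuron markers in the same library. In that library Olig1 and Olig2 made up most of the oligodendrocyte lineage sum, at 80.6 and 25.9 FPKM. Mog and Cspg4 of that list were higher in the astrocyte-labelled control, at 2.21 against 1.69 FPKM and 1.32 against 0.397 FPKM. The astrocyte-labelled libraries held 425 to 504 FPKM over 6 pericyte and smooth muscle markers and 66.2 to 85.8 FPKM over 4 fibroblast markers. Most of the first sum was Tagln, at 353 to 417 FPKM, while Myh11 and Rgs5 of that list were at 0.00875 FPKM or less. The labelled cell types thus do not describe these cultures fully, which is why the names astrocyte-labelled and neuron-labelled are used. Of 5 adipocyte markers Adipoq, the defining one, was blank in all 6 libraries, and the 5 summed to at most 0.132 FPKM in any. In such mixed bulk samples, fewer cells of a type and less RNA per cell cannot be told apart.

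RefSeq promoter sequences of assembly GRCr8 were found for 7 of the 10 genes: Pnpla2, Mgll, Abhd5, G0s2, Hilpda, Plin2 (with 2 start sites) and Plin3. The build of the expression values is Rnor 6.0, and no coordinate was used to obtain a value. Shown here are the 250 bases before the start of the genes on which the results turn, the lipase Pnpla2, its inhibitors G0s2 and Hilpda, and the coat gene Plin2 at the start site that holds a match. They lie at chr1:205982029-205982278 (plus strand), chr13:107335949-107336198 (minus strand), chr4:58836213-58836462 (plus strand) and chr5:106229019-106229268 (minus strand). They are written 5′ to 3′ in lower case, with capitals marking every match to the 4 motifs searched.
Pnpla2: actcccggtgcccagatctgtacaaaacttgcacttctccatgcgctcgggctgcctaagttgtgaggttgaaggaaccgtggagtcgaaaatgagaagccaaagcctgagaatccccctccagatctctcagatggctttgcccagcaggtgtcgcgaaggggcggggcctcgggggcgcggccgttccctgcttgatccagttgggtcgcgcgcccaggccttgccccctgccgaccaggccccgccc
G0s2: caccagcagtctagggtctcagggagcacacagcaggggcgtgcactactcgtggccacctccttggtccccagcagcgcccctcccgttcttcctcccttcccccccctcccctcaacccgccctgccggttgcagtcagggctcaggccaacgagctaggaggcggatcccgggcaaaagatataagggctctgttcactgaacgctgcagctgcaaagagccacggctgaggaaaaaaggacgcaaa
Hilpda: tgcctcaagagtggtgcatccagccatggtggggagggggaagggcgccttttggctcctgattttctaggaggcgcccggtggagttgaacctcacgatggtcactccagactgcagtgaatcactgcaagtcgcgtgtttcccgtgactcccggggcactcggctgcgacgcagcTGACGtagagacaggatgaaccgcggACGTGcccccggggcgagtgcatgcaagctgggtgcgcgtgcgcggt
Plin2: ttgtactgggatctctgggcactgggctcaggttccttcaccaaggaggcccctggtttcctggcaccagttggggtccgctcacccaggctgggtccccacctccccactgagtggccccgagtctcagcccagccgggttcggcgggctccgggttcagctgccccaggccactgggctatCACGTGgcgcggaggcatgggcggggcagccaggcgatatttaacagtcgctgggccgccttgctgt

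Searched on both strands were TGTTTAC (FoxO core), ACGTG (a form of the hypoxia response core), TGACG (cAMP response core) and CACGTG (E box). The E box contains ACGTG on each strand. Of the 33469 promoter entries, 3.21%, 16.6%, 18.2% and 5.59% hold these 4 motifs, in that order, in these 250 bases. The Pnpla2 and G0s2 windows hold none of the 4. GCGTG, the other form of the hypoxia response core, was not searched and stands in lower case where the G0s2 and Hilpda windows hold it. The Hilpda window holds TGACG, starting 73 bases before the start site, and ACGTG, starting 47 bases before it. The Plin2 window holds the E box, starting 67 bases before the start site, and the window of the other Plin2 start holds none. Of the windows not shown, Mgll holds the E box, Plin3 holds TGACG on the reverse strand, and Abhd5 holds none. A match is a description of the letters, and binding was not measured.

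The control libraries show where each step of the droplet cycle was expressed before insulin. In the astrocyte-labelled control the order from the highest was Plin3, Pnpla2, Hilpda, Plin2, Dgat1, Abhd5, Dgat2, G0s2, Mgll and Lipe, from 2.75 down to 0.0806 FPKM. In the neuron-labelled control it was G0s2, Pnpla2, Hilpda, Dgat1, Mgll, Abhd5, Dgat2, Plin2, Lipe and Plin3, from 5.31 down to 0.0379 FPKM. With no spread to set them against, neighbours in either order cannot be said to differ. Only Hilpda was at 1 FPKM or more in all 6 libraries, and Lipe, Mgll and Dgat2 were under 1 FPKM in all of them.

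**Figure D1:**
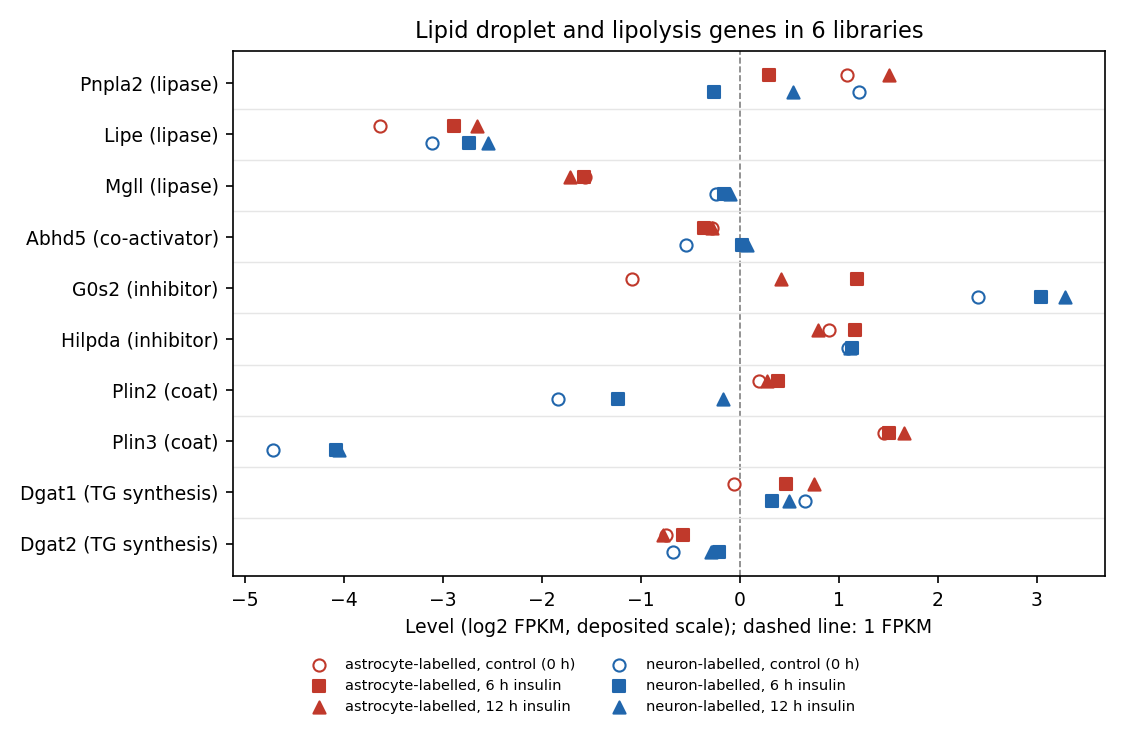
Level of each of the 10 genes (log2 FPKM, x axis) in the 6 libraries, 1 point per library, with open circles for controls, squares for 6 h and triangles for 12 h of insulin. Plin3 lies near 1.5 in the 3 astrocyte-labelled libraries and below -4 in the 3 neuron-labelled ones, while the G0s2 points of the neuron-labelled libraries all lie to the right of those of the astrocyte-labelled ones.

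Of the 6 genes compared between the controls, 2 were higher by 2-fold or more in the astrocyte-labelled culture, where 18.7% of all 7146 genes were, and 1 was lower by as much, where 21.9% were. Both of the higher genes encode coat proteins, and the lower one is G0s2. Plin3 and G0s2 reached 1 FPKM in only the control where each was higher, as did Plin2, so nothing is read from these counts. The median difference of the 6 was -0.16, against -0.10 over all genes.

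Plin3, which coats small and nascent droplets and is otherwise found in the cytosol, was at 2.75, 2.84 and 3.17 FPKM in the astrocyte-labelled control, 6 h and 12 h libraries. It was at 0.0379, 0.0590 and 0.0603 FPKM in the neuron-labelled ones. The cultures did not overlap, and the controls differed by 6.18 on the log2 scale. Of the 7146 genes, 137, Plin3 included, differed by as much in that direction. Plin2, the coat protein found on droplets of most cell types, was at 1.15, 1.31 and 1.21 FPKM in the astrocyte-labelled libraries and at 0.280, 0.426 and 0.886 FPKM in the neuron-labelled ones. Here too the cultures did not overlap, although the highest neuron-labelled value came near the lowest astrocyte-labelled one, and the control difference was 2.03. Of the 7146 genes, 686, Plin2 included, differed by as much in that direction. How many of all genes had cultures that did not overlap was not counted, so nothing is read from that for either coat gene. With log2(FPKM + 1) this Plin2 difference was 0.75, short of 2-fold. Per length, Plin3 exceeded Plin2 2.40-fold in the astrocyte-labelled control, whereas Plin2 exceeded Plin3 7.39-fold in the neuron-labelled control.

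G0s2 went the other way, with 0.471 FPKM in the astrocyte-labelled and 5.31 FPKM in the neuron-labelled control, a log2 difference of -3.49. Of the 7146 genes, 448, G0s2 included, differed by as much in that direction. The lipase it inhibits was at like levels in both, with Pnpla2 at 2.12 and 2.30 FPKM. Per length, Pnpla2 exceeded G0s2 4.49-fold in the astrocyte-labelled control, and G0s2 exceeded Pnpla2 2.31-fold in the neuron-labelled control. The other inhibitor, Hilpda, which is known as a hypoxia-inducible gene, was at 1.86 and 2.13 FPKM. Among genes under the floor, Mgll had 0.337 FPKM in the astrocyte-labelled and 0.848 FPKM in the neuron-labelled control.

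Of the genes compared after insulin, only the inhibitor G0s2 (astrocyte-labelled cultures) and the lipase Pnpla2 (neuron-labelled cultures at 6 h) reached 2-fold. In the astrocyte-labelled cultures G0s2 was at 0.471 FPKM in the control, 2.28 FPKM at 6 h and 1.33 FPKM at 12 h. It was lowest in the control and highest at 6 h. It rose by 2.27 at 6 h and by 1.5 at 12 h, or 4.84-fold and 2.84-fold, and 2 other genes of the 6206 compared at 6 h rose as much or more. At 12 h 13 of 6221 genes, G0s2 included, rose by as much. G0s2 alone of the 6 genes compared rose at each time, 1 of 6, against 1.05% of all genes at 6 h and 0.611% at 12 h. It was under 1 FPKM in the control and entered through the insulin libraries where it was high, so nothing is read from that count. With log2(FPKM + 1) the differences were 1.16 and 0.67, so the 12 h difference was short of 2-fold on that scale.

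Marker sets of several cell types also differed from the control in the astrocyte-labelled cultures. Of the microglia markers, 5 of 5 with a value in both libraries were higher at 6 h and 4 of 5 at 12 h. Their sum was 4.13, 6.49 and 4.86 FPKM without insulin, at 6 h and at 12 h, nearly all of it Tmem119, and C1qa was blank in all 3. Aif1, Cx3cr1, Csf1r and Itgam were at 0.0456 FPKM or less, so the counts carry little weight and do not show microglia. Of the astrocyte markers 8 of 10 were higher at 6 h and 4 of 10 at 12 h, with sums of 33.2, 37.7 and 31.6 FPKM. These markers did not move alike. Gfap, the astrocyte filament protein, was at 6.23, 12.4 and 8.45 FPKM, highest at 6 h. Glul was at 5.32, 4.20 and 3.29 FPKM and Gja1 at 11.9, 10.8 and 11.7 FPKM, both highest in the control. The neuron markers summed to 1.77, 2.92 and 1.72 FPKM, mostly Nefl, with 6 of 10 higher at 6 h and 4 of 7 at 12 h. The pericyte and smooth muscle markers summed to 425, 438 and 504 FPKM, mostly Tagln, with 4 of 6 higher at 6 h and 6 of 6 at 12 h. The fibroblast markers summed to 66.2, 67.4 and 85.8 FPKM, with 3 of 4 higher at 6 h and 2 of 4 at 12 h. Whether the cells that hold these markers had a part in the G0s2 values was not tested.

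In the neuron-labelled cultures G0s2 was at 5.31, 8.26 and 9.77 FPKM without insulin, at 6 h and at 12 h. The control was again the lowest, but neither difference, 0.64 and 0.88, reached 2-fold. None of the 5 genes compared rose at either time, where 1.60% of 6610 genes rose at 6 h and 2.39% of 6641 at 12 h.

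Pnpla2 was at 2.12, 1.23 and 2.85 FPKM in the astrocyte-labelled control, 6 h and 12 h libraries. The 6 h library was the lowest and the 12 h library the highest, with differences from the control of -0.78 and 0.43. In the neuron-labelled cultures Pnpla2 was at 2.30, 0.834 and 1.45 FPKM. The 6 h library was again the lowest, and here the 12 h library stayed under the control. The difference at 6 h was -1.46, and 41 of 6610 genes, Pnpla2 included, were as low or lower relative to the control. With log2(FPKM + 1) it was -0.85, short of 2-fold. At 12 h the difference was -0.66. Of the oligodendrocyte lineage markers 7 of 8 were lower at 6 h and 5 of 8 at 12 h, with sums of 117, 111 and 118 FPKM without insulin, at 6 h and at 12 h, and their part in the Pnpla2 values was not tested. Neuron, astrocyte, microglia and pericyte markers, given below with Plin2, were mostly higher at 6 h.

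Pnpla2 was the only gene of the 5 compared that fell in the neuron-labelled cultures at 6 h, where 1.29% of all genes fell, and it reached 1 FPKM in the control alone, so nothing is read from that count. None of the 5 fell at 12 h, where 1.45% did. In the astrocyte-labelled cultures none of the 6 fell, where 0.886% of all genes fell at 6 h and 0.916% at 12 h. At a 1.5-fold size, Pnpla2 counted as lower at 6 h there as well. From 6 h to 12 h, Pnpla2 differed by 1.21 in the astrocyte-labelled and 0.80 in the neuron-labelled cultures, so the 12 h value lay above the 6 h value in both. The 6 h and 12 h differences of a culture share its control library.

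The ratio of inhibitor to lipase transcript within each library combines these values. In the astrocyte-labelled control G0s2 over Pnpla2 was 0.223, at 6 h it was 1.85 and at 12 h it was 0.468. In the neuron-labelled libraries the ratio was 2.31 without insulin, 9.91 at 6 h and 6.72 at 12 h. In both cultures it was lowest in the control and highest at 6 h. The ratio of the co-activator to the lipase, Abhd5 over Pnpla2, was 0.388, 0.633 and 0.288 in the astrocyte-labelled libraries and 0.298, 1.21 and 0.723 in the neuron-labelled ones. It too was highest at 6 h in each culture, where Pnpla2 was lowest. Protein levels and lipolysis were not measured.

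**Figure D2:**
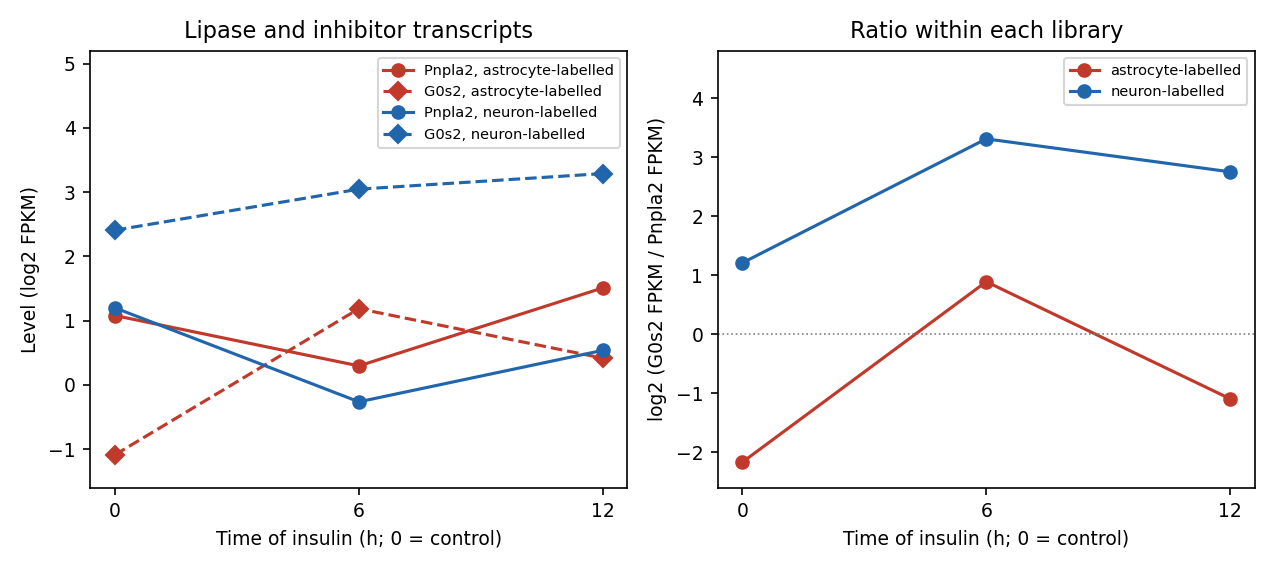
Left, levels of Pnpla2 (circles, solid lines) and G0s2 (diamonds, dashed lines) in log2 FPKM against hours of insulin, with 0 for the control and 1 library per point. Right, log2 of the G0s2 to Pnpla2 ratio in the same libraries, which goes from -2.17 to 0.89 and -1.09 in the astrocyte-labelled and from 1.21 to 3.31 and 2.75 in the neuron-labelled cultures.

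The remaining genes around the first lipolytic step differed less. Abhd5 was at 0.821, 0.778 and 0.821 FPKM in the astrocyte-labelled control, 6 h and 12 h libraries, all under the floor. In the neuron-labelled libraries it was at 0.685, 1.01 and 1.05 FPKM, with the control lowest and differences of 0.56 and 0.62. Hilpda was at 1.86, 2.24 and 1.73 FPKM in the astrocyte-labelled and at 2.13, 2.19 and 2.16 FPKM in the neuron-labelled libraries. The latter 3 lay within 0.04 of each other on the log2 scale, the narrowest spread of the 10 genes in that culture. So the inhibitors differed in size, G0s2 by 0.64 to 2.27 across the 4 insulin comparisons and Hilpda by -0.11 to 0.27.

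Of the later lipases, Lipe was at 0.0806, 0.135 and 0.158 FPKM in the astrocyte-labelled and at 0.115, 0.150 and 0.172 FPKM in the neuron-labelled libraries. The control was lowest in both, with differences from 0.38 to 0.97, at levels too low to be counted. With log2(FPKM + 1) these differences were 0.04 to 0.10. Mgll was at 0.337, 0.335 and 0.304 FPKM and at 0.848, 0.895 and 0.934 FPKM. Its insulin differences lay between -0.15 and 0.14, and its order of cultures was the same at every time. Per length, Pnpla2 exceeded Lipe between 5.57-fold and 26.3-fold in the 6 libraries.

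Among the coat genes, Plin2 gave the largest difference of all 10 in the neuron-labelled cultures, but under 1 FPKM throughout. From 0.280 FPKM in the control it was at 0.426 FPKM at 6 h and 0.886 FPKM at 12 h, differences of 0.61 and 1.66. The 12 h value was 3.17-fold the control value, and it was not counted because neither library reached 1 FPKM. With log2(FPKM + 1) the 12 h difference was 0.56. Of 22690 genes with a value in both libraries at any level, 1253 were as high or higher. In the astrocyte-labelled cultures the Plin2 differences were 0.19 and 0.08.

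Marker sets also differed from the control in the neuron-labelled libraries, not all in the direction of Plin2. Of the neuron markers 9 of 12 were higher at 6 h and 3 of 12 at 12 h. Of the astrocyte markers 6 of 10 were higher at 6 h and 4 of 10 at 12 h, and of the oligodendrocyte lineage markers 1 of 8 and 3 of 8. Of 6 microglia markers, 4 of the 5 with a value in both libraries were higher at 6 h and 4 of 4 at 12 h, and their sum was 0.227, 0.361 and 0.653 FPKM without insulin, at 6 h and at 12 h. None of the 6 reached 1 FPKM there, and Tmem119, a defining one, was blank in the control and 6 h libraries. The pericyte and smooth muscle markers summed to 4.52, 6.72 and 10.6 FPKM, nearly all of it Tagln, with 4 of 4 higher at 6 h and 4 of 5 at 12 h. Of the 5 adipocyte markers 2 of 2 with a value in both libraries were higher at each time, Fabp4 and Lep, and the sum was 0.0326, 0.0703 and 0.132 FPKM, with Adipoq blank. The fibroblast markers summed to at most 0.0273 FPKM. The part of these cells in the Plin2 values was not tested.

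Plin3 differed by 0.04 and 0.20 in the astrocyte-labelled cultures and by 0.64 and 0.67 in the neuron-labelled ones, the latter at about 0.06 FPKM or less. Plin2 over Plin3 was 0.417, 0.460 and 0.382 in the astrocyte-labelled and 7.39, 7.22 and 14.7 in the neuron-labelled libraries.

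Dgat1 and Dgat2 add the last fatty acid to diglyceride and so make triglyceride. Dgat1 was at 0.962, 1.38 and 1.68 FPKM in the astrocyte-labelled control, 6 h and 12 h libraries, with the control lowest and differences of 0.52 and 0.80. At 12 h 83 of 6221 genes were as high or higher relative to the control. In the neuron-labelled libraries Dgat1 was at 1.58, 1.25 and 1.41 FPKM, with the control highest and differences of -0.33 and -0.17. Dgat2 was at 0.597, 0.670 and 0.582 FPKM in the astrocyte-labelled libraries, within 0.17 of the control on the log2 scale. In the neuron-labelled ones it was at 0.625, 0.863 and 0.819 FPKM, 0.47 and 0.39 above the control. Dgat1 over Dgat2 was 1.61, 2.06 and 2.88 in the astrocyte-labelled and 2.53, 1.45 and 1.72 in the neuron-labelled libraries.

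**Figure D3:**
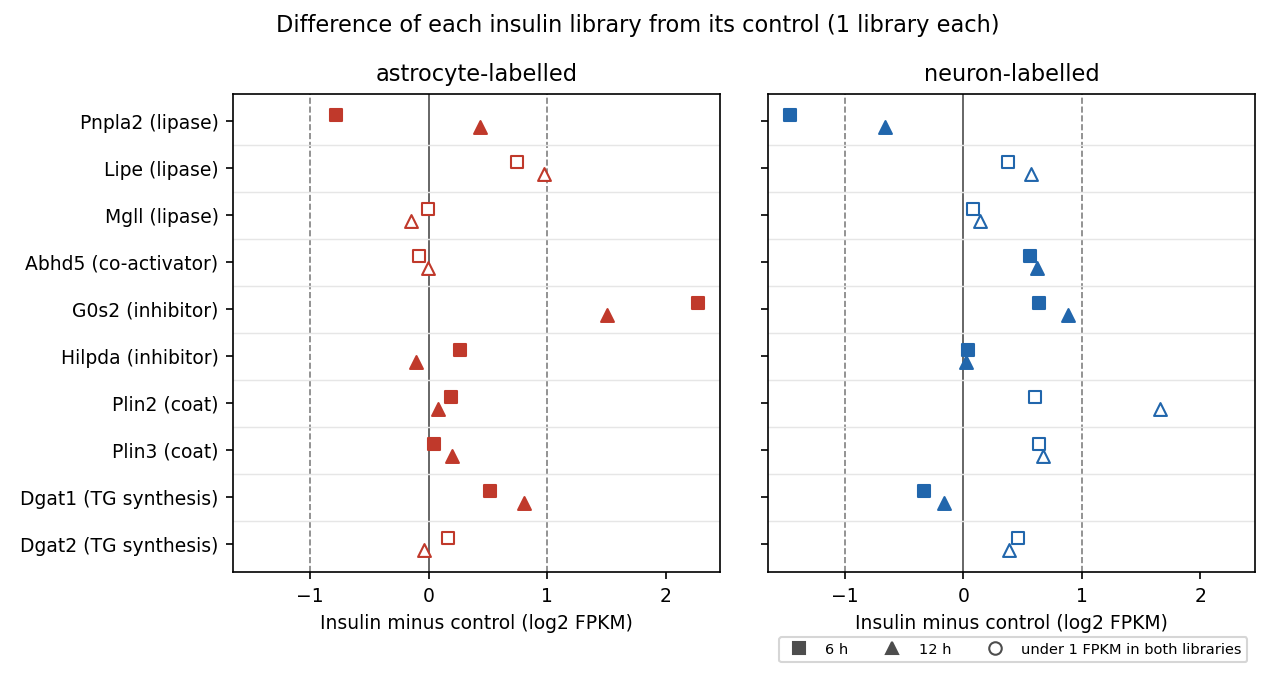
Insulin minus control difference of each gene (log2 FPKM, x axis) in the astrocyte-labelled (left) and neuron-labelled (right) cultures, with squares for 6 h, triangles for 12 h, and open symbols where both libraries were under 1 FPKM. Among filled symbols, those of G0s2 on the left and the 6 h symbol of Pnpla2 on the right lie past the dashed 2-fold lines, and the open triangle of Plin2 lies at 1.66.

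By role, then, the lipase and co-activator genes compared (Pnpla2, and Abhd5 in the neuron-labelled cultures) gave 1 fall and no rise over the 4 insulin comparisons. The inhibitors gave 2 rises, both of G0s2, and the coat and synthesis genes compared none of either. Of all genes, 0.611% to 2.39% rose and 0.886% to 1.45% fell in a given insulin comparison. G0s2 and Pnpla2 each passed the floor there only through libraries where it was higher, so nothing is read from these counts. The coat genes were under the floor in the neuron-labelled cultures, where Plin2 differed by 1.66 at 12 h. The median difference of the genes compared was 0.23 at 6 h and 0.32 at 12 h over 6 genes in the astrocyte-labelled cultures, against 0.09 and 0.10 over all genes. In the neuron-labelled cultures it was 0.04 and 0.02 over 5 genes, against 0.14 and 0.14, and it was below 0 once differences were centred on genes at 5 FPKM or more. Over all 10 genes, with no floor, it was 0.42 and 0.48. The all-gene medians given here keep the floor, so these 2 values are not to be set against them. With no floor, 9859 of 22714 genes were at least 0.376 above the control at 6 h. At 12 h 9417 of 22690 were at least 0.390 above it. The all-gene medians lay above 0 in both cultures. A value was present for more symbols after insulin, for 23814 and 23898 against 22891 in the astrocyte-labelled and for 25510 and 25528 against 23927 in the neuron-labelled cultures. The part of that in the medians was not tested.

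**Figure D4:**
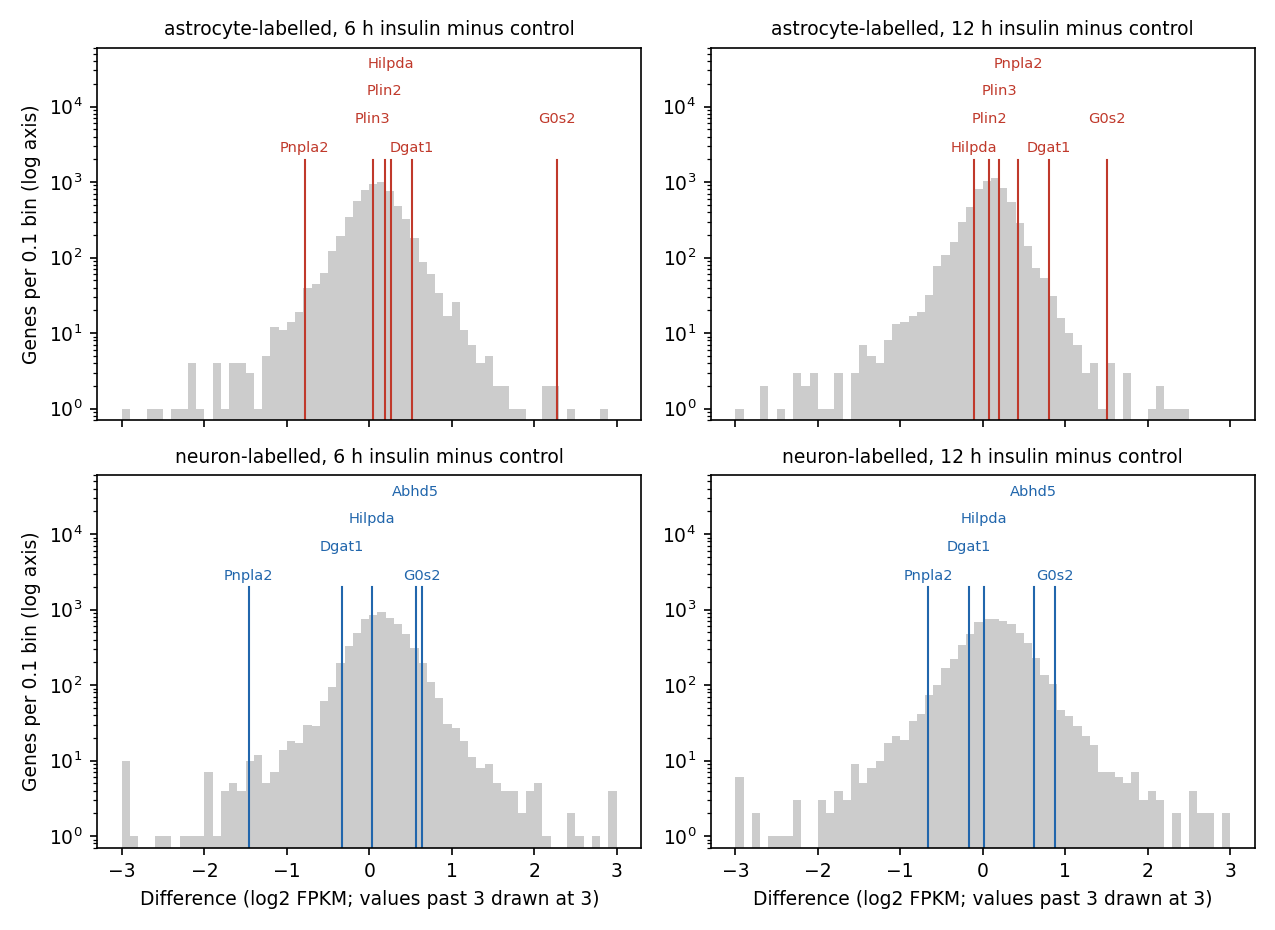
Distribution of insulin minus control differences over all genes compared (grey bars, genes per bin of 0.1 on a log axis) in the 4 insulin comparisons, with a vertical line for each of the 10 genes that entered. In the astrocyte-labelled cultures G0s2 lies in the upper tail at 2.27 and 1.5, and in the neuron-labelled cultures Pnpla2 lies in the lower tail at 6 h, at -1.46.

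The other genes of the pathway were 72 symbols in 6 lists, of which 18 and 19 were compared in the astrocyte-labelled cultures at 6 h and 12 h, and 23 and 21 in the neuron-labelled ones. None of them reached 2-fold in either direction in any insulin comparison, and their medians were 0.11, 0.14, 0.22 and 0.19, against 0.09, 0.10, 0.14 and 0.14 over all genes. The shares of all genes past 2-fold, 0.611% to 2.39% in a direction, leave less than 1 such gene among so few in any 1 comparison. Nothing is read from the absence. Among droplet formation and fatty acid activation genes, Rab18, a small GTPase of the droplet surface, was at 1.24, 2.06 and 2.16 FPKM in the neuron-labelled libraries, 0.73 and 0.79 above the control. Bscl2 (seipin), which acts where droplets form at the endoplasmic reticulum, was at 1.55, 1.24 and 1.16 FPKM there. Fitm2, which also acts in droplet budding, was at 1.46, 1.76 and 1.61 FPKM in the astrocyte-labelled and at 3.26, 4.43 and 3.72 FPKM in the neuron-labelled libraries.

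Of glycerolipid synthesis genes upstream of the DGAT enzymes, 1 of 14 was compared in the astrocyte-labelled cultures. That was Agpat6, the table's name for the glycerol-3-phosphate acyltransferase Gpat4, at 1.39, 1.64 and 1.57 FPKM. In the neuron-labelled cultures 4 and 3 were compared, with differences from -0.12 to 0.67. Of other hydrolases, Lpl (lipoprotein lipase, which works outside the cell) was at 7.88, 7.94 and 8.69 FPKM in the astrocyte-labelled libraries and at 0.291 to 0.418 FPKM in the neuron-labelled ones. Its insulin differences in the former were 0.01 and 0.14. Among other coat proteins only Plin4 reached 1 FPKM, in the neuron-labelled control and 12 h libraries. Plin1, the main coat of fat cells, was at 0.0114 FPKM or less where it had a value.

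Of the 16 hormonal control genes the 6 or 7 compared differed by -0.58 to 0.57 over the 4 comparisons. Irs2, an insulin receptor substrate, was at 2.63, 1.80 and 1.76 FPKM and at 1.96, 1.5 and 1.71 FPKM, with the control highest in each culture. Pde3b, the phosphodiesterase through which insulin lowers cAMP in fat cells, was under the floor, at 0.0815, 0.114 and 0.108 FPKM in the astrocyte-labelled and at 0.0496, 0.0921 and 0.107 FPKM in the neuron-labelled libraries, the latter 0.89 and 1.11 above the control. Of the transcription regulators, Srebf1 was at 1.48, 2.65 and 1.86 FPKM in the astrocyte-labelled libraries, with a 6 h difference of 0.84. Hif1a was at 1.47, 2.38 and 2.52 FPKM in the neuron-labelled libraries, 0.69 and 0.78 above the control, where Hilpda differed by 0.04 and 0.02. Mlx, a partner of the glucose-sensing factors, was at 3.36, 4.73 and 5.24 FPKM and at 3.74, 4.74 and 5.18 FPKM, with the control lowest in both cultures.

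**Figure D5:**
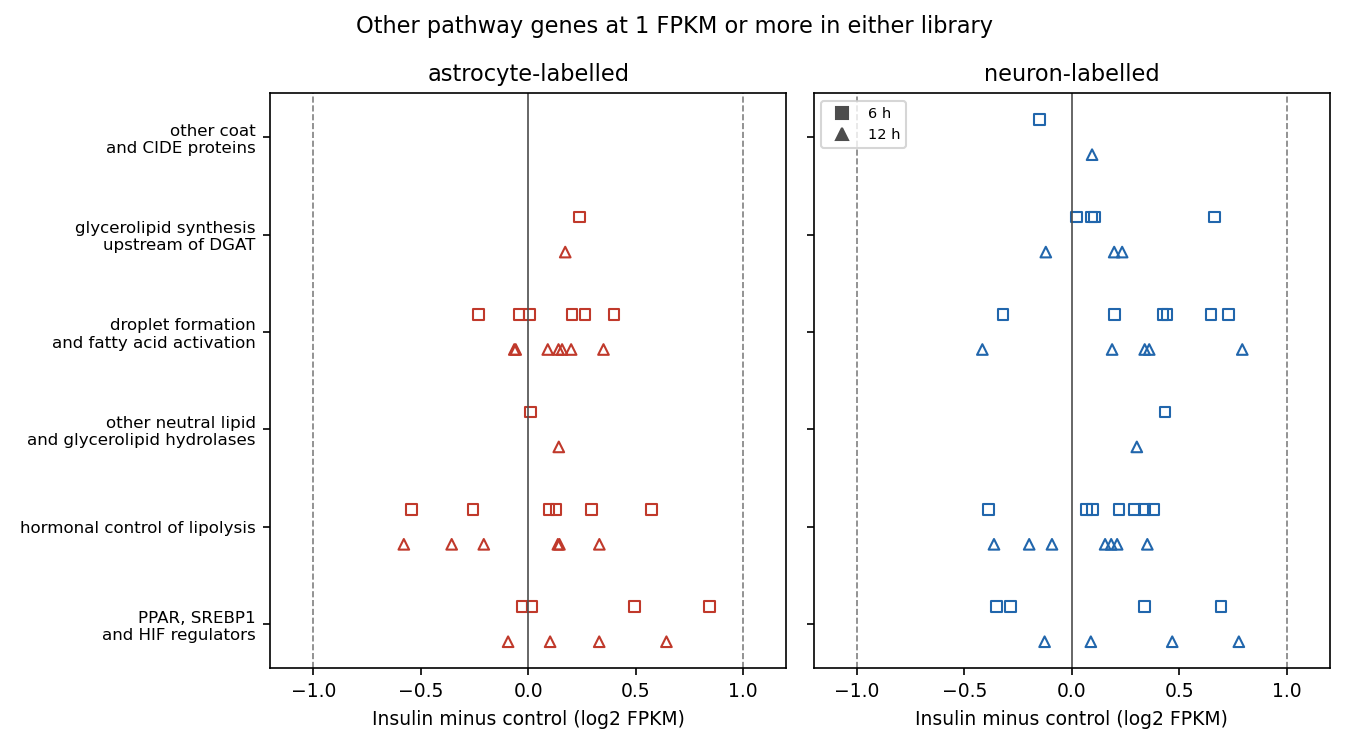
Insulin minus control differences (log2 FPKM, x axis) of the other pathway genes at 1 FPKM or more in either library, by list, with squares for 6 h and triangles for 12 h. All symbols lie between the dashed 2-fold lines, from -0.58 to 0.84.

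For the 2 genes past 2-fold after insulin, the genes with the most similar set of 4 insulin differences were sought among 3780 genes at 1 FPKM or more in both cultures. Likeness was the Euclidean distance over the 4 log2 differences, which come from 6 libraries. Nearest to Pnpla2 were Ppp1r35 (distance 0.79), Ctdsp2 (0.96) and Khnyn (1.03). Ppp1r35 differed by -0.56 and 0.16 in the astrocyte-labelled and by -0.76 and -0.69 in the neuron-labelled cultures, so it was smaller than Pnpla2 in 3 of the 4. Nearest to G0s2 were Igfbp3 (1.03), M6pr (1.26) and Mff (1.30). Igfbp3, which binds insulin-like growth factors, differed by 1.46 and 0.95 and by 0.48 and 0.61.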

How the data were processed

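The deposited values are FPKM on a log2 scale in a single table, quantile-normalised across the 6 libraries by the authors, as the table's name and its equal quantiles show. Base 2 was settled from the values: the highest, 16.77, is 111749 FPKM as a log2 and would be 19190003 FPKM, more than the unit allows, as a natural log. Partek 6.5, bcl2fastq 2.17.1.14 and the build Rnor 6.0 are credited to the submitters' processing notes. The aligner is not given in the sources used here. Depth is unknown, so no counting interval is given, and the precision of low values cannot be stated.

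Each column was tied to a sample by the description in its labels, and 0 per-sample columns were left unused. Of 37185 rows, 2 repeated symbols were reduced to the row of higher mean, and blank cells were no value. Older names of 4 list symbols were matched through RefSeq synonyms, and the marker Col1a2 was not used here. Each comparison is 1 library against 1, on the deposited scale, with a floor of 1 FPKM in either library and a size of 2-fold. Alternatives were no floor, a floor of 5 FPKM, pseudocounts of 1 and 0.1 FPKM, centring on genes at 5 FPKM or more, and a 1.5-fold size.

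All 10 genes are named. Other pathway genes may be named if past 2-fold after insulin or among the 2 largest of a list and culture, and the 3 nearest patterns per gene past 2-fold. Bscl2, Plin1, Pde3b, Acsl1, Acsl3, Acsl5 and Acsl6 fall outside this rule and were chosen after their values were seen. The members and lists were chosen with earlier results of these data known. Python 3.11.15, pandas 2.3.3, numpy 2.4.6 and matplotlib 3.10.9 were used.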

Additional observations from a re-analysis of the deposited data

Results flagged for a closer look

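Dgat1, Abhd5 and Mgll had both insulin libraries on 1 side of the control in the astrocyte-labelled cultures. In the neuron-labelled cultures both lay on the other side. This difference between cultures was not tested. The share of all genes that do the same was not counted, so nothing is read from there being 3 of 10. Dgat1 lay above its astrocyte-labelled control by 0.52 and 0.80 and below its neuron-labelled control by 0.33 and 0.17 on the log2 scale. The astrocyte-labelled difference minus the neuron-labelled one was 0.85 at 6 h and 0.97 at 12 h. For Abhd5 it was -0.64 and -0.62, from differences of -0.079 and -0.00058 against 0.56 and 0.62. For Mgll it was -0.087 and -0.29, from differences of -0.0086 and -0.15 against 0.078 and 0.14. The Abhd5 value at 12 h and the Mgll value at 6 h lie within 0.01 of the astrocyte-labelled control, so their side of it carries little weight. Abhd5 was under 1 FPKM in the astrocyte-labelled cultures and Mgll in both.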

How the results depend on the processing

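With 1 library a group no replicate could be left out and no paired analysis was possible because no group has a second sample. Under the alternatives, 43 counts of genes past 2-fold were within 1.5 times the count reported and 13 were not. Of the single-gene differences, 77 kept their direction and side of 2-fold, 3 fell short of 2-fold and 4 turned. Pseudocounts can only shrink a difference and cannot turn it. Direction could therefore change only under centring, which gave all 4 turns, so the 77 are not read as a measure of stable direction. With log2(FPKM + 1) the count of rises at 12 h in the astrocyte-labelled cultures became 0 (G0s2, 0.67), the fall at 6 h in the neuron-labelled cultures 0 (Pnpla2, -0.85), and the genes higher in the astrocyte-labelled control 1 (Plin3, with Plin2 at 0.75). With no floor, Plin2 made 1 rise at 12 h in the neuron-labelled cultures and Mgll a second gene lower in the astrocyte-labelled control, 2 in all. With no floor the medians were 0.14 at 12 h in the astrocyte-labelled cultures, and 0.42 and 0.48 at 6 h and 12 h in the neuron-labelled ones. At 5 FPKM only G0s2 was compared, in the neuron-labelled cultures and between controls, so the medians became its own 0.64, 0.88 and -3.49, the fall of Pnpla2 was not counted (0), and no gene was higher in the astrocyte-labelled control (0). No member reached 5 FPKM in the astrocyte-labelled cultures, so that alternative gave no value there. At 1.5-fold, Pnpla2 was 1 gene lower at 6 h in the astrocyte-labelled cultures and 1 lower at 12 h in the neuron-labelled ones, Dgat1 joined G0s2 as 2 higher at 12 h in the former, G0s2 was 1 higher at 6 h and Abhd5 and G0s2 were 2 higher at 12 h in the latter, and 2 were lower in the astrocyte-labelled control. Centring took 0.08, 0.09, 0.13 and 0.14 from the 4 insulin comparisons. It turned the neuron-labelled medians, which are the Hilpda values, to -0.092 and -0.12, Plin3 at 6 h to -0.041 and Plin2 at 12 h to -0.015 in the astrocyte-labelled cultures. Low levels and a missing spread limit all of these values.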

Other observations

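Of 5 long-chain acyl-CoA synthetases, which activate fatty acids for use in lipid synthesis or oxidation, Acsl5 was the one with the higher level in the astrocyte-labelled control. The astrocyte-labelled minus neuron-labelled control difference was 2.24 for Acsl5, -1.80 for Acsl3, -1.26 for Acsl1, -0.27 for Acsl4 and -6.44 for Acsl6, with Acsl1 and Acsl6 under 1 FPKM in both. Acsl5 was at 1.19 to 1.37 FPKM in the astrocyte-labelled and 0.252 to 0.510 FPKM in the neuron-labelled libraries, and Acsl3 was at 0.854 to 0.999 FPKM and 2.98 to 4.00 FPKM. These genes were chosen after their values were seen. Adrb1, a receptor that raises cAMP, was at 1.13, 1.69 and 0.884 FPKM in the astrocyte-labelled control, 6 h and 12 h libraries and at 2.21, 2.36 and 1.72 FPKM in the neuron-labelled ones, lowest at 12 h in both.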
